A study of Mus musculus with 4 samples.

Results

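Immune cells carry many surface receptors that read sugars, lipids and self proteins on their surroundings, and the genes of these lectin-like, Siglec and paired immune receptors are described here in cultured mouse Kupffer cells. The genes were chosen by name and not by a cut on measured values, but earlier results of these data were known at that point. They were the symbols that begin with Clec, Siglec, Klr, Lilr, Cd300 or Pilr, without the Clec4 genes, Clec1b, Clec9a and Siglech. Pira2, Pirb, Cd33, Mgl2, Trem1, Trem2, Treml4 and Tyrobp were added. The arrays held 109 such probes of 56605, which named 74 genes, and 63 of these genes were measured among 24067 genes tested. A gene counts as measured where a probe was well above background, a mark that the scanner software sets, on both arrays of at least 1 group. The 11 genes that were not measured were Clec18a, Clec2f, Clec2h, Clec2m, Clec3a, Klra10, Klrb1-ps1, Klrh1, Klri1, Klri2 and Siglec15. A further 12 symbols that fit the rule, that of the beta-glucan receptor Clec7a among them, were not analysed here.

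Kupffer cells are the resident macrophages of the liver. The cells came from male wild-type C57BL/6 mice of 8 weeks, were freed from the liver with collagenase, purified on a density step, and then kept for 24 h in medium with 0.1% serum. One group of 2 arrays came from cells given maresin 1 (MaR1) at 200 nM, a lipid that macrophages make from docosahexaenoic acid and that is known for helping inflammation to resolve, and the other group of 2 arrays from cells given ethanol, its vehicle (Veh). Whether both arrays of a group stem from separate mice or dishes is not in the labels. The p-values therefore speak only for the spread among these 4 arrays, and that spread may be technical.

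These receptors work in opposing sets. Inhibitory members carry tyrosine motifs (ITIMs) in their tails that recruit the phosphatases SHP-1, SHP-2 and SHIP1, whereas activating members have short tails and signal through partner proteins such as DAP12, encoded by Tyrobp, or the Fc receptor gamma chain, which recruit the kinase SYK. In paired families an activating and an inhibitory receptor with similar outer domains are encoded side by side. Macrophages use them to sense dying cells, lipids, glycans and MHC class I molecules, while many of the Klr genes are better known from natural killer (NK) cells.

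Levels are given as log2 of the processed signal relative to the 75th percentile of the same array, a scale on which levels of different genes cannot be set against each other, and differences as MaR1 minus Veh on the same log2 scale with the SE of the fit. The 75th percentile of the signal was 946 and 847 on the MaR1 arrays and 961 and 988 on the Veh arrays, and no spot was saturated. The Kupffer cell marker Clec4f was bright on all 4 arrays, at 6.46 and 6.39 with MaR1 and 6.43 and 6.34 with Veh. Of 10 Kupffer cell markers, all of them measured, 1 rose (Csf1r, 0.29 ± 0.07), 1 fell (Adgre1, -0.67 ± 0.06) and 8 did not pass. Their summed level, in multiples of the 75th percentile signal, was 1080 and 1060 with MaR1 against 1160 and 1110 with Veh. Markers of other cells were present too. The summed level of 9 NK cell markers, in multiples of the 75th percentile signal, was 80.3 and 86.1 with MaR1 against 50.5 and 49.6 with Veh, and that of 9 T cell markers was 12.5 on both MaR1 arrays against 15.3 and 15.1 with Veh. Such sums follow the brightest probes, and that of the NK cell markers followed Gzma, at 5.49 and 5.70 with MaR1 against 4.27 and 4.19 with Veh, while the median difference of the list was -0.08. All 4 arrays lay on 1 slide with the groups at different positions, so position and treatment cannot be told apart, and in bulk RNA fewer cells of a type cannot be told apart from less RNA per cell.

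The comparison asks which of these receptor genes respond in Kupffer cells within a day of exposure to maresin 1. Of the 63 measured receptor genes, 11 rose and 21 fell with MaR1 and 31 did not pass (limma, adjusted p under 0.05 by Benjamini-Hochberg across every gene tested). That is 50.8% called, where 24% of all genes tested were called in the same comparison. In the 2 directions, 17.5% of the receptor genes rose, against 11.2% of all genes, and 33.3% fell, against 12.7% of all genes. These shares of all genes are also the ones to set beside the counts given for families and gene lists. The median difference was -0.15 over the measured receptor genes and -0.02 over all genes tested. Among the 63 genes, 61 were well above background on all 4 arrays, and the other 2, Klrg2 and Cd300ld3, did not pass. Leaving out 1 array gave 5 to 8 higher and 12 to 15 lower receptor genes, the lowest numbers being 5 and 12 without MaR1 replicate 2, with 7 higher without MaR1 replicate 1 and 12 lower without Veh replicate 2. In these fits on 3 arrays, 8.17% to 11.7% of all genes were called.

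**Figure D1:**
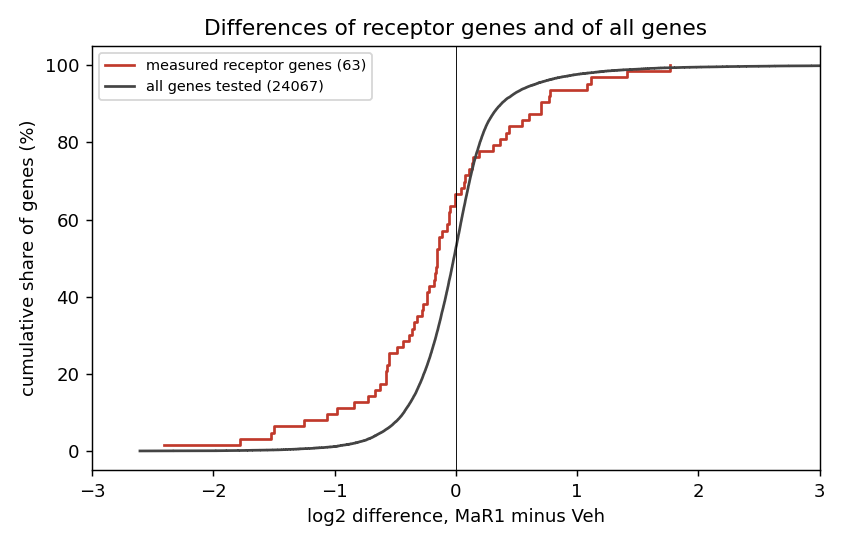
Cumulative share of genes (y axis, percent) by their log2 difference, MaR1 minus Veh (x axis), for the 63 measured receptor genes and for all 24067 genes tested. The curve of the receptor genes lies above that of all genes on the lower side, and their medians are -0.15 and -0.02.

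Called changes of at least 2-fold were found for 10 receptor genes, 4 of them higher and 6 lower. Over all genes tested, 3.33% had such a change, with 2.24% higher and 1.09% lower. The 4 that rose were lectin-like or CD300 genes (Clec2l, Clec10a, Cd300lb, Clec12b). The 6 that fell were Klra2, Lilra5, Cd300e, Treml4, Klra9 and Pilra. For each of the 10 genes the MaR1 arrays lay on one side of both Veh arrays. Choosing genes by adjusted p and size makes this likely, so it adds no support. The calls of 9 of them held whichever of the 4 arrays was left out, whereas that of Clec12b was lost without either Veh array or MaR1 replicate 2 (adjusted p up to 0.0849).

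**Figure D2:**
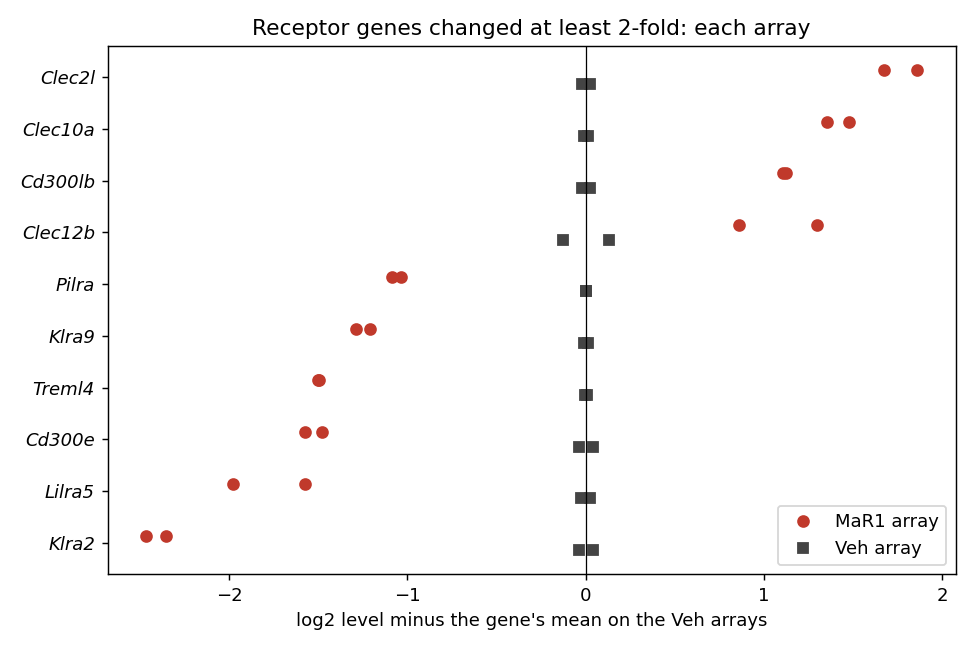
Each array's log2 level minus the gene's mean on the Veh arrays (x axis) for the 10 receptor genes with a called change of at least 2-fold (y axis); circles are MaR1 arrays and squares Veh arrays. In every row the 2 MaR1 arrays stand apart from the 2 Veh arrays, which the choice of these genes makes likely. The widest spread within a group is that of Clec12b and Lilra5.

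**Figure D3:**
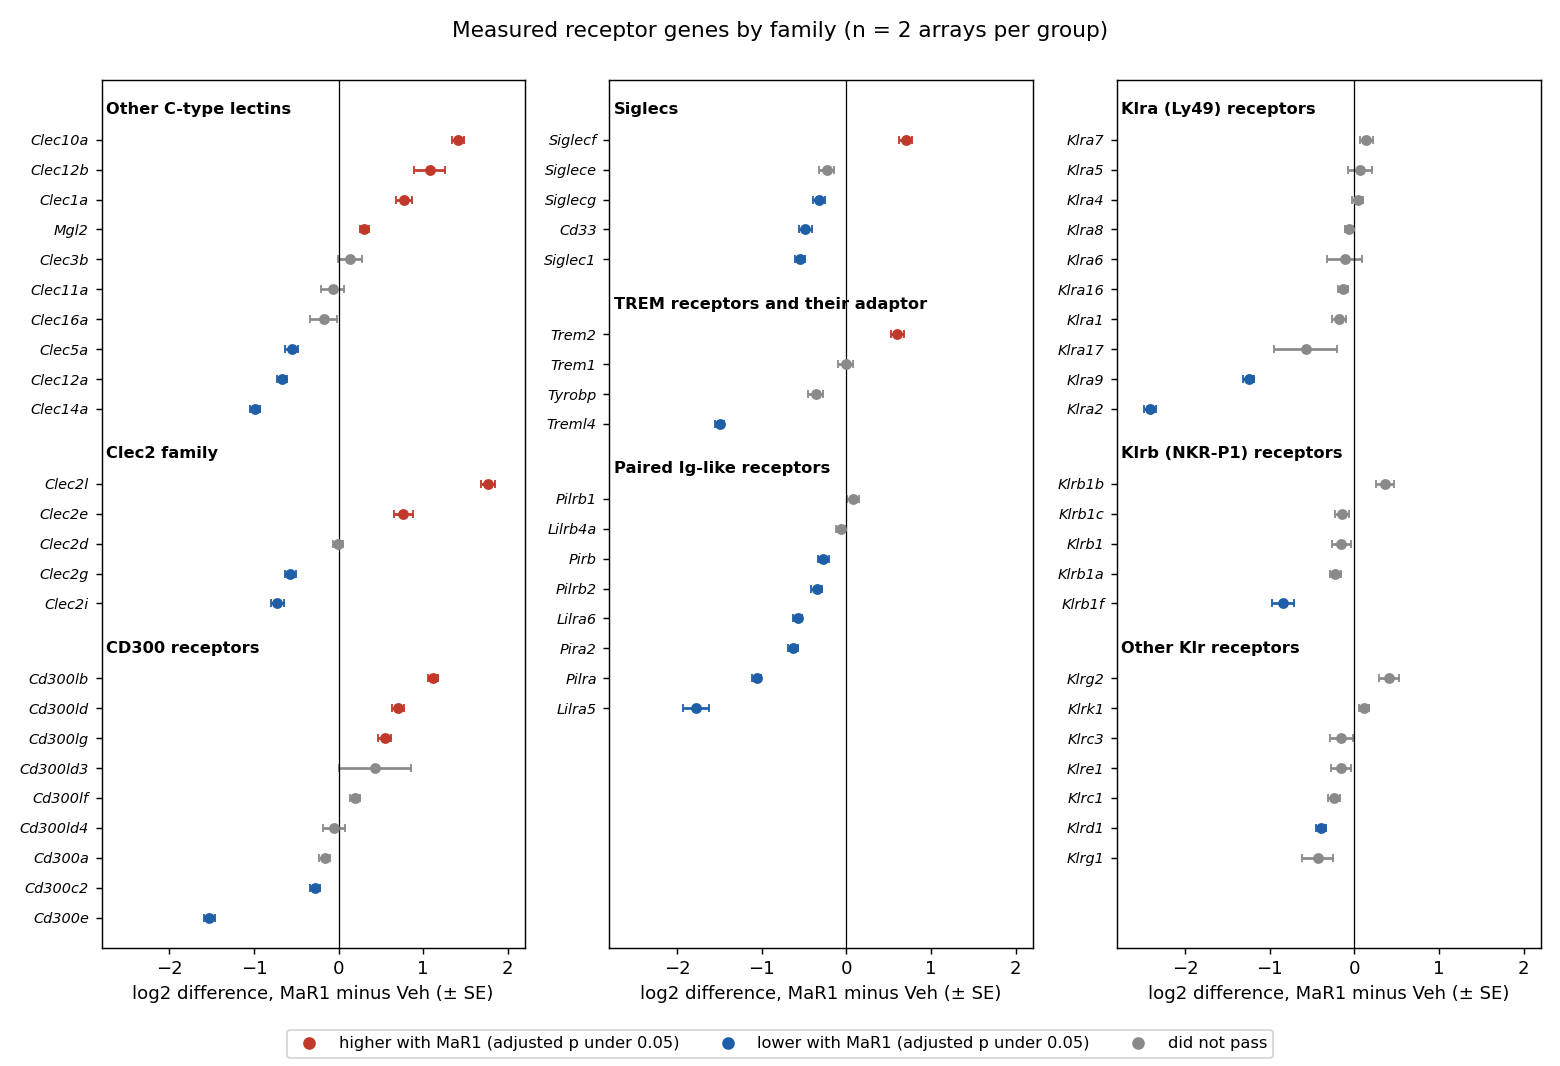
Log2 difference, MaR1 minus Veh (x axis, points with SE of the fit), of the 63 measured receptor genes by family; colours show genes called higher, called lower or not passing. The paired Ig-like receptors hold 6 lower and 0 higher genes, while the C-type lectins, Clec2 and CD300 genes hold both.

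Among the C-type lectins outside the Clec2 family, 4 of 10 measured genes rose, 3 fell and 3 did not pass. Clec10a encodes the galactose-binding lectin MGL1 of macrophages. Its level was 0.89 and 1.02 with MaR1 against -0.45 and -0.47 with Veh, a 2.66-fold rise (1.41 ± 0.07, adjusted p = 0.00258). Mgl2, its neighbour gene, encodes a close relative with a preference for N-acetylgalactosamine, and its level was 6.95 and 6.94 with MaR1 against 6.64 on both Veh arrays. Both lectin genes were thus higher on both MaR1 arrays, but Mgl2 rose by only 0.30 ± 0.05 (adjusted p = 0.0266). Mgl2 lost its call in each fit on 3 arrays (adjusted p as high as 0.119) and with quantile normalization. Within each array the ratio of Clec10a to Mgl2, set to 0 at its Veh mean on the log2 scale, was 1.05 and 1.17 with MaR1 against 0.01 and -0.01 with Veh. Dendritic cells also carry these lectins. Of 7 measured markers of conventional dendritic cells 4 rose and 0 fell, with summed levels of 35.8 and 36.3 with MaR1 against 15.5 and 15.9 with Veh. This sum followed Batf3 (1.89), while Cd209a (0.73), Zbtb46 (0.47) and Ccr7 (0.36) rose less and Dpp4 (0.05), Itgae (-0.14) and Flt3 (-0.28) did not pass, and the part of dendritic cells in the rise of the lectin genes was not tested.

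Clec12b, an inhibitory lectin-like receptor gene, stood at -3.69 and -3.26 with MaR1 against -4.68 and -4.42 with Veh (1.08 ± 0.18, adjusted p = 0.0235), and with another background correction (normexp) its rise was 0.55, under 2-fold. Clec1a, whose product recognises fungal melanin, rose by 0.78 ± 0.10, and its call was lost without either MaR1 array (adjusted p up to 0.0605). Clec12a, which encodes an inhibitory receptor for uric acid crystals, had levels of 4.89 and 4.83 with MaR1 against 5.53 and 5.52 with Veh. It fell by 0.67 ± 0.06 (adjusted p = 0.00608). Clec5a, a receptor gene whose product signals through DAP12, fell by 0.56 ± 0.07, a call lost without either Veh array or MaR1 replicate 1 (adjusted p up to 0.0647). Clec14a, a lectin-like gene of endothelial cells, stood at -4.56 and -4.48 with MaR1 against -3.54 on both Veh arrays (-0.98 ± 0.06, adjusted p = 0.00349), and with normexp its difference was -0.38. Of 7 sinusoidal endothelial markers, 3 rose, 0 fell and 4 did not pass, and their summed level was 66.1 and 66.9 with MaR1 against 49.7 and 54.3 with Veh, where the first Veh array lacks Kdr, whose spot was marked as an outlier. The part of endothelial cells in the fall of Clec14a was not tested. Clec3b, Clec11a and Clec16a had differences between -0.18 and 0.13 and did not pass.

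Several Clec2 genes encode ligands of the NKR-P1 receptors and lie among the receptor genes. Of 5 measured genes, 2 rose, 2 fell and 1 did not pass. Clec2l is a family member best known from brain whose gene lies apart from them. Its rise was the largest of the 63 measured receptor genes on this scale, though not with normexp, where it was 1.14 and Clec10a 1.39. With the mean of a gene's probes both were 1.77, but that of Clec10a takes in a probe not well above background on either Veh array. The level of Clec2l was -1.91 and -2.09 with MaR1 against -3.79 and -3.74 with Veh, a 3.40-fold rise (1.77 ± 0.08, adjusted p = 0.00251). Clec2e also rose, by 0.76 ± 0.11, a call lost without either MaR1 array (adjusted p up to 0.077). Clec2i, which encodes Clr-g, stood at -0.56 and -0.72 with MaR1 against 0.07 and 0.09 with Veh and fell by 0.72 ± 0.08. Clec2g fell by 0.57 ± 0.06, a call lost without Veh replicate 2 or MaR1 replicate 2 (adjusted p up to 0.053). Clec2d, which encodes the widely expressed NK cell ligand Clr-b, was at 3.81 and 3.85 with MaR1 and at 3.83 and 3.85 with Veh, and the groups overlapped. Its difference of -0.0038 ± 0.06 did not pass (adjusted p = 0.966).

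The NKR-P1 receptor genes were measured at 5 members, of which 1 fell and 4 did not pass. Klrb1f, whose product binds Clr-g, fell by 0.84 ± 0.13, from a dim probe at -4.47 and -4.64 with MaR1 against -3.86 and -3.56 with Veh. This call was lost without Veh replicate 2 or either MaR1 array (adjusted p up to 0.0845), and with normexp the difference was -0.35. Klrb1b, whose product is the inhibitory receptor for Clr-b, did not pass at its brightest probe, with 0.36 ± 0.10 (adjusted p = 0.0736). Nor did it at its other probe, with 0.00 ± 0.13. Its brightest probe passed as higher with normexp (0.30, adjusted p = 0.0183) and with a variance trend (adjusted p = 0.00988). Klrb1c, which encodes the NK1.1 antigen, did not pass at its brightest probe (-0.14 ± 0.09). Its other probes gave -0.28 ± 0.06 and -0.58 ± 0.09, both of which passed in the fit over all probes (adjusted p = 0.0392 and 0.0205).

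Among the Siglecs, receptors for sialic acid, 1 of 5 measured genes rose, 3 fell and 1 did not pass. Siglec1 encodes sialoadhesin, a macrophage receptor without an inhibitory motif that holds sialylated cells and particles. Its level was 2.87 and 2.79 with MaR1 against 3.40 and 3.36 with Veh, and it fell by 0.55 ± 0.06 (adjusted p = 0.0102). At its other, dimmer probe the difference was -0.16 ± 0.07, and the call was lost without Veh replicate 1 or MaR1 replicate 2 (adjusted p up to 0.0581). Cd33 stood at -1.51 and -1.65 with MaR1 against -1.06 and -1.13 with Veh and fell by 0.48 ± 0.08, a call lost without either Veh array or MaR1 replicate 2 (adjusted p up to 0.0933). Siglecg, an inhibitory siglec gene known from B cells, fell by 0.32 ± 0.07 at a dim probe. It lost its call in each fit on 3 arrays (adjusted p as high as 0.153). With normexp its difference was -0.09. Of 8 B cell markers 4 rose, 0 fell and 4 did not pass, with summed levels of 8.93 and 8.73 with MaR1 against 6.75 and 6.88 with Veh. Cr2 (-0.72, adjusted p = 0.0523) and Pax5 (-0.42, adjusted p = 0.137) were among those that did not pass, and the part of B cells in the value of Siglecg was not tested. Siglecf, an inhibitory siglec gene of eosinophils and alveolar macrophages, rose by 0.70 ± 0.07 and stood at -3.21 and -3.16 with MaR1 against -3.95 and -3.82 with Veh. Without MaR1 replicate 2 its adjusted p was 0.0513. The eosinophil peroxidase gene Epx was not well above background on both arrays of either group, and the eosinophil genes Prg2 (0.04) and Ccr3 (-0.20) did not pass. Of 4 measured markers of eosinophils, basophils and mast cells, only the mast cell gene Kit rose (0.69). Cpa3 had a larger difference but did not pass (1.04 ± 0.30, adjusted p = 0.0758). The summed level of these markers, which followed Kit, was 9.14 and 9.29 with MaR1 against 5.69 and 5.87 with Veh. The part of these cells in the rise of Siglecf was not tested. Siglece, the main inhibitory siglec gene of mouse macrophages, stood at 1.60 and 1.51 with MaR1 and at 1.88 and 1.71 with Veh. It did not pass (-0.23 ± 0.08, adjusted p = 0.117). With normexp (-0.25, adjusted p = 0.0316) and with a variance trend (adjusted p = 0.0089) it passed as lower.

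All 4 measured genes of the PIR and LILR cluster, which follow each other in the annotation among the receptor genes studied, fell. PIR-B, encoded by Pirb, is an inhibitory receptor for MHC class I, and the PIR-A proteins, encoded by Pira2 and Lilra6 (also called Pira3), are its activating counterparts. Lilra5 encodes an activating leukocyte Ig-like receptor, a role known from human cells. Lilra5 stood at -2.61 and -3.02 with MaR1 against -1.01 and -1.06 with Veh, which made it 3.43-fold lower (-1.78 ± 0.15, adjusted p = 0.0059), and its other probe gave -2.40 ± 0.08. Pira2 had levels of 3.67 and 3.61 with MaR1 against 4.24 and 4.30 with Veh and fell by 0.63 ± 0.06. Lilra6 had levels of 4.0 and 3.97 with MaR1 against 4.56 and 4.57 with Veh and fell by 0.58 ± 0.06. The calls of these 3 genes held whichever of the 4 arrays was left out. Pirb was at 6.93 and 6.85 with MaR1 against 7.19 and 7.13 with Veh, and its fall of 0.27 ± 0.06 passed narrowly (adjusted p = 0.0491). Pirb lost its call in each fit on 3 arrays (adjusted p as high as 0.194) and with median scaling. Within each array the ratio of Pirb to Pira2, set to 0 at its Veh mean, was 0.37 and 0.35 with MaR1 against 0.06 and -0.06 with Veh. Lilrb4a, on the other hand, the gene of the inhibitory receptor gp49B at another locus, stood at 7.26 and 7.23 with MaR1 and at 7.33 and 7.28 with Veh and did not pass (-0.06 ± 0.06, adjusted p = 0.470). The within-array ratio of Lilra5 to Lilrb4a, set to 0 at its Veh mean, was -1.53 and -1.91 with MaR1 and within 0.01 of 0 on both Veh arrays.

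The sequences upstream of these neighbours are shown because the genes fell together. Each is the 250 bases before the annotated start in RefSeq, build GRCm38.p6, from Pirb (chr7:3720383-3720632, minus strand), Pira2 (chr7:3845052-3845301, minus strand), Lilra6 (chr7:3915502-3915751, minus strand) and Lilra5 (chr7:4237504-4237753, plus strand), written 5′ to 3′. Capitals mark matches on either strand to GAGGAA, the core of sites of the macrophage factor PU.1, or to TTGCNNAA, a C/EBP-type motif, and no match to the other motifs searched was found in them.
Pirb: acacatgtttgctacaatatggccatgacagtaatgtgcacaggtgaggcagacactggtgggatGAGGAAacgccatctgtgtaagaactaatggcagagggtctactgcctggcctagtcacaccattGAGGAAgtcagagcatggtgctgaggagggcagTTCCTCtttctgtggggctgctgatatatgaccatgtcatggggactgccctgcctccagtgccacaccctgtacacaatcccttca
Pira2: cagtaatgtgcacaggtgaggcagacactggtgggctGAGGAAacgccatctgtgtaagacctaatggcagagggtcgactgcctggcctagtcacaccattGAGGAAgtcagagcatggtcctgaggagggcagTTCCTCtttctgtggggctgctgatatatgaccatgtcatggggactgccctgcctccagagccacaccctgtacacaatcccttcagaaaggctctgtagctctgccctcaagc
Lilra6: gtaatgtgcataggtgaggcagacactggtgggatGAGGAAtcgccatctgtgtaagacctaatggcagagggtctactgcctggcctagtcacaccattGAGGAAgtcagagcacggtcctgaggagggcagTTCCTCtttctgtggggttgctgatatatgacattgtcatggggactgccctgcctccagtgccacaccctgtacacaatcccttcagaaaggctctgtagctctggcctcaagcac
Lilra5: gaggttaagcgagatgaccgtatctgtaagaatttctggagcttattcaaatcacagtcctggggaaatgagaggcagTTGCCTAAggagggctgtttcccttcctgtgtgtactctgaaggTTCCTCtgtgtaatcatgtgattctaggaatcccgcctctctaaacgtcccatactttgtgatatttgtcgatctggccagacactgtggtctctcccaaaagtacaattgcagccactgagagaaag
The Pirb and Pira2 sequences were identical at 97.7% of 222 aligned columns, those of Pira2 and Lilra6 at 96% of 248, and those of Pirb and Lilra6 at 96.4% of 220. Each of these 3 windows held GAGGAA or its complement 3 times, in the same order, and that of Lilra5 held it 1 time beside 1 C/EBP-type match. Lilra5 aligned to Pirb over only 58 columns. These windows lie before the annotated starts, so their likeness does not show what a probe can tell apart. The PIR genes are near-copies of each other and of further Pira genes. A probe named for Pira2 or Lilra6 may therefore also read its relatives, which was not checked. The values of Pira2 and Lilra6 are uncertain as values of single genes.

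Pilra fell while its neighbour Pilrb1 did not pass. Pilra encodes an inhibitory receptor with an ITIM that binds sialylated proteins, and Pilrb1 and Pilrb2 encode its activating counterparts, which signal through DAP12. Pilra stood at 1.21 and 1.16 with MaR1 against 2.24 on both Veh arrays and was 2.09-fold lower (-1.06 ± 0.06, adjusted p = 0.00298). At its other probe the levels were -1.36 and -1.19 with MaR1 against 0.78 and 0.83 with Veh, a difference of -2.08 ± 0.08. The probes thus differed in the size of the fall. A probe of a PILR gene may also read its relatives, which was not checked. Pilrb1 was at 4.14 and 4.02 with MaR1 and at 4.03 and 3.98 with Veh, and its groups overlapped (0.08 ± 0.07, adjusted p = 0.456). Pilrb2 fell by 0.35 ± 0.07, a call lost in each fit on 3 arrays (adjusted p as high as 0.132). Within each array the ratio of Pilra to Pilrb1, set to 0 at its Veh mean, was -1.17 and -1.10 with MaR1 against -0.02 and 0.02 with Veh. Over the 6 pairs of genes compared in this way, 2 arrays against 2 allow no exact two-sided permutation p below 0.333, which each of the 6 reached, also after Benjamini-Hochberg adjustment. Pianp, whose product is a ligand of PILR alpha, also fell, by 1.31 ± 0.11.

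The windows before the starts of Pilra (chr5:137836279-137836528, minus strand) and Pilrb1 (chr5:137858050-137858299, minus strand) are shown since the genes differ in response and yet share most of this sequence, with capitals as above (RefSeq, GRCm38.p6).
Pilra: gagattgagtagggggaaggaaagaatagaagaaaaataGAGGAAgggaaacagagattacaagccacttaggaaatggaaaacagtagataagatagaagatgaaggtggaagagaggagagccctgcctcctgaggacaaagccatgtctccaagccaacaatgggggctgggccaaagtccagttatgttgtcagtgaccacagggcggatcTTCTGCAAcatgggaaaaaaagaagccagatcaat
Pilrb1: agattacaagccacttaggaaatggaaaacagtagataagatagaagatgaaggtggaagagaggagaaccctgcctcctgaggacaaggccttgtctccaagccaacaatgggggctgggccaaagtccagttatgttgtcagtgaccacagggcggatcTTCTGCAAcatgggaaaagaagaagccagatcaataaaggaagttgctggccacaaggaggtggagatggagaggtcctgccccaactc
They were identical at 98% of 196 aligned columns, with the start of Pilrb1 placed further downstream on the shared stretch. Both held 1 C/EBP-type match in it, and the Pilra window also held 1 GAGGAA match, outside the shared stretch. Of the measured receptor genes, 53 had an upstream window in the RefSeq table. Matches to GAGGAA lay in 5 of 8 windows of genes that rose, 14 of 19 of genes that fell and 17 of 26 of genes that did not pass, compared with 23.1% of the windows of all 27025 genes listed. Matches to TTGCNNAA lay in 0 of 8, 5 of 19 and 11 of 26 of these windows, compared with 9.55% of all windows. AGGTCA, the core bound by ROR nuclear receptors, lay in 1 of 8, 3 of 19 and 4 of 26, compared with 13.8%. A STAT6-type motif, TTC and GAA spaced by 4 bases, lay in 0 of 8, 1 of 19 and 1 of 26 (5.86% of all), and the AP-1-type motif TGANTCA in 2 of 8, 2 of 19 and 0 of 26 (6.87% of all). All were searched on both strands, and the counts are descriptions, since neighbouring family members share sequence.

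The CD300 receptors bind lipids, among them phosphatidylserine on dying cells. Of 9 measured genes, 3 rose, 2 fell and 4 did not pass, and neighbours in the same gene cluster moved in opposite directions. Cd300lb encodes an activating receptor that signals through DAP12. It stood at 2.37 and 2.39 with MaR1 against 1.29 and 1.25 with Veh and rose 2.17-fold (1.12 ± 0.06, adjusted p = 0.0028). At its other probes the differences were 1.17 ± 0.06 and 0.67 ± 0.10. Cd300ld had levels of 4.39 and 4.49 with MaR1 against 3.79 and 3.69 with Veh and rose by 0.70 ± 0.07 (adjusted p = 0.00858). Cd300e, whose product is an activating receptor of monocytes (known from human cells), stood at 0.58 and 0.49 with MaR1 against 2.10 and 2.03 with Veh and was 2.88-fold lower (-1.53 ± 0.07, adjusted p = 0.00236). The calls of these 3 genes held whichever array was left out. Within each array the ratio of Cd300e to Cd300lb, set to 0 at its Veh mean, was -2.59 and -2.70 with MaR1 against 0.02 and -0.02 with Veh.

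Among the other CD300 genes, Cd300lg, a gene of endothelial cells that lies apart from the cluster, rose by 0.54 ± 0.08, a call lost without either Veh array (adjusted p up to 0.0764). Of 7 sinusoidal endothelial markers, Pecam1 (1.15), Stab2 (0.47) and Cdh5 (0.33) also rose. Oit3 (0.20), Tek (-0.02), Lyve1 (-0.16) and Kdr (-0.32) did not pass, and the endothelial gene Clec14a fell. The part of endothelial cells in the rise of Cd300lg was not tested. Cd300c2 fell by 0.28 ± 0.06 and lost its call in each fit on 3 arrays (adjusted p as high as 0.161). The inhibitory receptor genes Cd300a (-0.16 ± 0.07, adjusted p = 0.152) and Cd300lf (0.19 ± 0.06, adjusted p = 0.0887) did not pass. Cd300a passed as lower with quantile normalization (-0.26, adjusted p = 0.0487), in the authors' value table (-0.26, adjusted p = 0.0416) and with a variance trend (adjusted p = 0.0225). Cd300lf passed as higher at its other probe (0.36 ± 0.08, adjusted p = 0.0453) and with a variance trend (adjusted p = 0.00777). Of 5 monocyte markers 2 rose and 2 fell, with summed levels of 146 and 137 with MaR1 against 125 and 122 with Veh, and the part of monocytes in the fall of Cd300e was not tested.

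**Figure D4:**
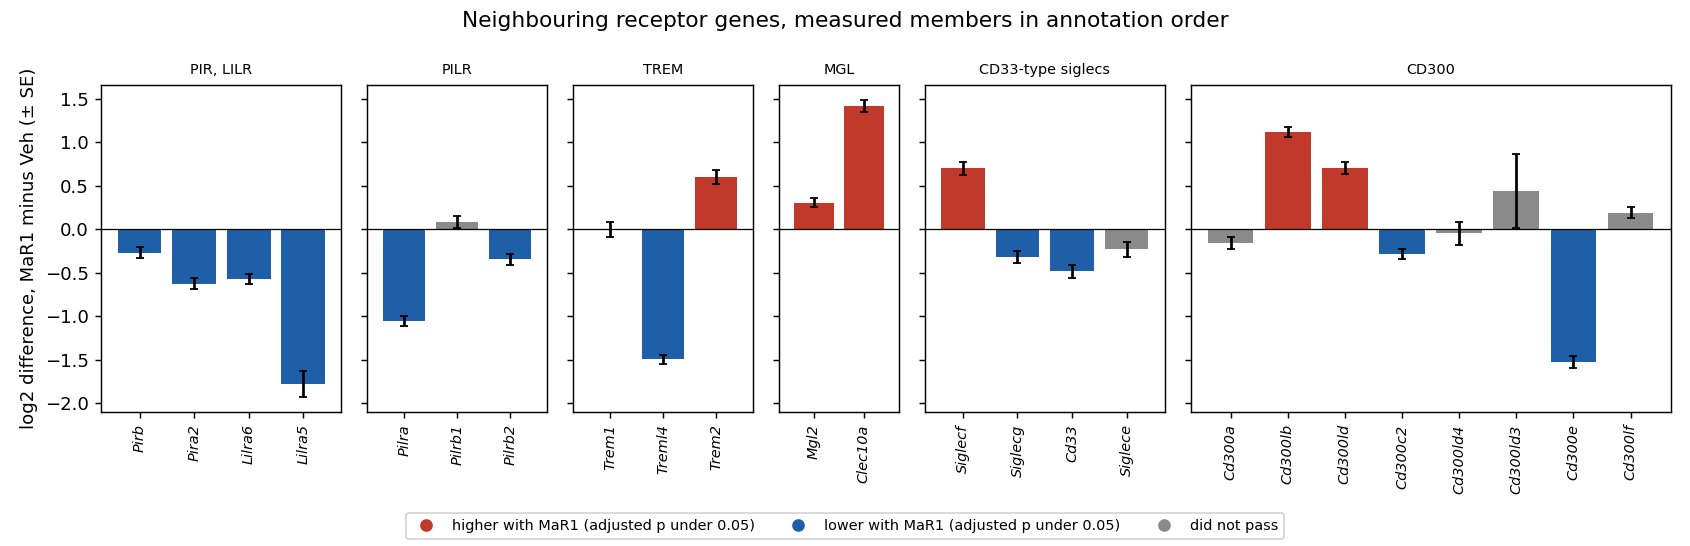
Log2 difference, MaR1 minus Veh (y axis, bars with SE of the fit), of measured receptor genes that neighbour each other, in the order of the annotation within each cluster. All 4 PIR and LILR genes are lower, the 2 galactose lectin genes are higher, and the TREM, siglec and CD300 clusters hold genes called in both directions.

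In the TREM cluster the direction also differed between neighbours. TREM2 binds lipids and apolipoproteins and signals through DAP12, and is known from lipid-associated macrophages. Trem2 stood at 2.65 and 2.70 with MaR1 against 2.15 and 1.98 with Veh and rose by 0.60 ± 0.08 (adjusted p = 0.0149). Its call was lost without Veh replicate 2 or either MaR1 array (adjusted p up to 0.0705). Treml4, whose product binds dying cells and also pairs with DAP12, stood at 2.14 and 2.13 with MaR1 against 3.64 and 3.63 with Veh. It was 2.82-fold lower (-1.50 ± 0.05, adjusted p = 0.0017), with -1.45 ± 0.18 at its other probe, and the call held whichever array was left out. The within-array ratio of Treml4 to Trem2, set to 0 at its Veh mean, was -2.07 and -2.13 with MaR1 against -0.08 and 0.08 with Veh. Trem1, which amplifies inflammatory signals, was at -0.49 and -0.55 with MaR1 and at -0.61 and -0.42 with Veh, and the groups overlapped (-0.01 ± 0.09, adjusted p = 0.956).

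Tyrobp, the gene of the shared adaptor DAP12, stood at 6.43 and 6.23 with MaR1 against 6.71 and 6.68 with Veh. Both MaR1 arrays were lower, but the difference of -0.36 ± 0.09 missed the threshold (adjusted p = 0.0524). It passed without MaR1 replicate 1 (adjusted p = 0.0497), with quantile normalization (0.0372), with normexp (0.00696), in the authors' value table (0.0296), with the filter on all 4 arrays (0.0419) and with a variance trend (0.00027).

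The Ly49 receptors, encoded by the Klra genes, bind MHC class I molecules and sit mostly on NK cells. Of 10 measured genes, 0 rose, 2 fell and 8 did not pass. Differences of those 8 lay between -0.57 and 0.14. Klra2 encodes Ly49B, an inhibitory member known from myeloid cells. Its level was 0.77 and 0.65 with MaR1 against 3.16 and 3.08 with Veh, which made it 5.31-fold lower (-2.41 ± 0.07, adjusted p = 0.0015), the largest fall among the 63 measured receptor genes. Its other probe gave levels of -0.63 and -0.66 with MaR1 against 1.14 and 1.19 with Veh (-1.81 ± 0.06). Klra9, which encodes the inhibitory receptor Ly49I, stood at -1.36 and -1.44 with MaR1 against -0.17 and -0.14 with Veh (-1.25 ± 0.06, adjusted p = 0.00258). The Ly49 genes are close relatives, and a probe may read more than 1 of them.

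The remaining Klr genes were measured at 7 members, of which 1 fell and 6 did not pass, with differences between -0.43 and 0.41. Klrd1, the gene of CD94, which pairs with NKG2 chains, fell by 0.39 ± 0.06, a call lost in each fit on 3 arrays (adjusted p as high as 0.0915). Klrk1, which encodes the activating receptor NKG2D, was at 2.50 and 2.55 with MaR1 and at 2.39 and 2.43 with Veh and did not pass (0.11 ± 0.06, adjusted p = 0.233). Of the 9 NK cell markers, Gzma (1.37 ± 0.09) and Gzmb (0.36 ± 0.06) rose, Ncr1 (-0.34 ± 0.06), Nkg7 (-0.38 ± 0.06) and Xcl1 (-1.10 ± 0.06) fell, and 4 did not pass. Of the 9 T cell markers, 2 rose, 4 fell and 3 did not pass. The defining NK cell marker Ncr1 was dim but well above background, and the part of NK and T cells in these values was not tested.

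Genes of the receptors' signalling partners were called in both directions. Among 10 adaptors and tyrosine kinases of activating receptors, 2 rose, 2 fell and 6 did not pass. The kinase gene Syk (-0.01 ± 0.06, adjusted p = 0.932) and the Fc receptor gamma chain gene Fcer1g (-0.07 ± 0.06, adjusted p = 0.401) did not pass, while the kinase genes Src (0.52 ± 0.06) and Fyn (0.46 ± 0.06) rose and Zap70 (-0.31 ± 0.07) fell. Among 13 downstream adaptors and enzymes, 3 rose, namely Malt1 (0.68 ± 0.06), Vav3 (0.65 ± 0.06) and Lat2 (0.58 ± 0.06), and 2 fell, Nfatc1 (-0.60 ± 0.06) and Vav1 (-0.34 ± 0.06). Among 6 phosphatases and related docking proteins of ITIM receptors, 0 rose and 2 fell, which were Inpp5d, the gene of SHIP1 (-0.48 ± 0.06), and Ptpn6, the gene of SHP-1 (-0.27 ± 0.06). The medians of these 3 lists were -0.07, -0.03 and -0.24, beside -0.02 over all genes. The counts called in them stand beside 24% called among all genes tested.

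On the side of the ligands, 1 of 7 measured ligands of NKG2D and Ly49 receptors rose and 6 did not pass. Of all genes tested, 24% were called, the share to set beside this count and those below. The classical MHC class I genes H2-K1 (-0.06 ± 0.06) and H2-D1 (-0.03 ± 0.07) did not pass, and the NKG2D ligand gene Ulbp1 rose (0.53 ± 0.08). Among 8 other ligand genes, Anxa1 rose (0.50 ± 0.09), Pianp and Clu (-0.41 ± 0.07) fell, and 5 did not pass, Apoe among them (-0.08 ± 0.06). Of 15 genes that make, move or remove sialic acid, the sugar that siglecs read, 4 rose, 1 fell and 10 did not pass, with a median of 0.07. St8sia4, which builds polysialic acid, rose by 1.37 ± 0.09, and the sialyltransferase genes St3gal6 (0.83 ± 0.07) and St6galnac4 (0.74 ± 0.07) and, less, St3gal4 (0.34 ± 0.07) rose as well, while St3gal3 fell (-0.30 ± 0.07).

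Several genes could be read at more than 1 probe. Of the measured receptor genes, 21 had more than 1 kept probe. The 12 other probes of called genes all had the sign of the brightest probe. When every probe was tested, 9 of them passed in the same direction. Both counts take in the other probe of Clec10a, which was kept only through the MaR1 arrays and so could hardly differ in sign. Such shares over all genes are not given here. The 3 that did not pass were those of Siglec1, Clec2i (-0.45 ± 0.11) and Siglecf (0.74 ± 0.24). Sizes agreed less well than signs: the other probes of Pilra, Clec10a, Lilra5 and Klra2 differed from the brightest by over 0.5 on the log2 scale. So did that of Klrg1, whose other probe passed as lower (-0.97 ± 0.14, adjusted p = 0.016), while its brightest did not pass (-0.43 ± 0.18). That probe was not well above background on either MaR1 array. The other probe of Clec10a was not well above background on either Veh array, where it gives only a bound, and the second probe of Mgl2 was well above background on 1 array.

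**Figure D5:**
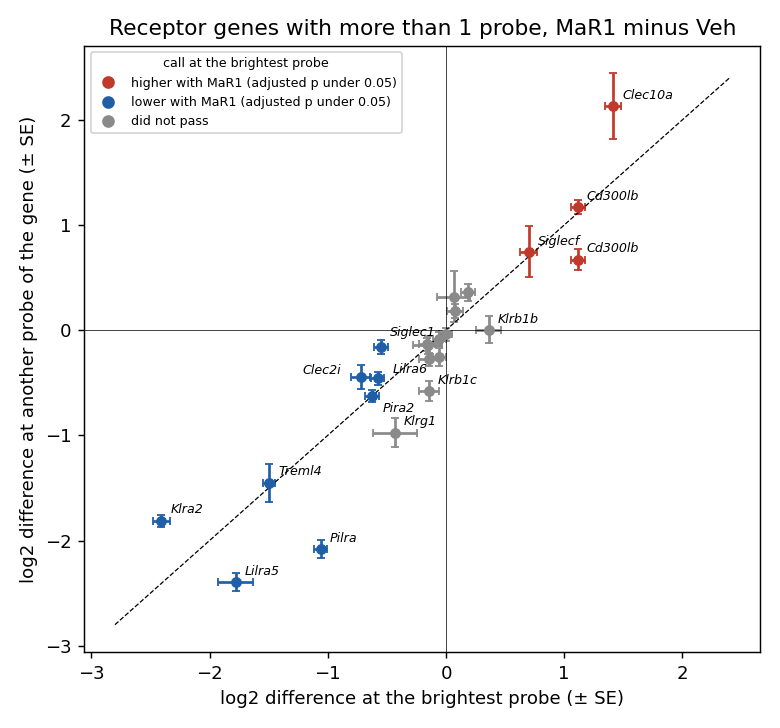
Log2 difference, MaR1 minus Veh, at the brightest probe (x axis) and at each other kept probe of the same gene (y axis), with SE of the fit and a dashed line of equality. The 12 other probes of called genes lie on the same side of 0 as the brightest probe. That of Clec10a was kept only through the MaR1 arrays. Among genes called lower, that of Pilra falls furthest below the line.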

How the data were processed

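Total RNA labelled with Cy3 was measured on 4 one-colour Agilent arrays of 62976 spots. The authors deposited scanner files of linear intensity made with Agilent Feature Extraction 11.0.1.1 (file headers, submitters' processing notes), with background subtracted within an array and no scaling between arrays. They also deposited a table of log2 values of unstated scale. Its columns correlated with the log2 processed signal of their arrays (r = 1) and each had a median of 9.07. It served as an alternative.

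Each spot's processed signal was divided by the 75th percentile of its array, without control spots, and put on the log2 scale. Outlier-marked spots were dropped and repeated spots of a probe averaged. Probes well above background on both arrays of a group were kept (31128), and each gene was read at its brightest kept probe. Probes were named by RefSeq accession through a table of assembly GRCm38.p6 (33006 of 56605 probes matched). Two-sided moderated tests came from limma 3.58.1 (lmFit, eBayes; R version 4.3.3) with Benjamini-Hochberg adjustment over 24067 genes and no replicate term. The code was tested on simulated data. Promoter windows were aligned with Biopython 1.88, and plots made with matplotlib 3.10.9 (Python 3.11.15). The number of arrays limits the precision.

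Members and gene lists were chosen with earlier results of these data known. Named genes were the called members, a list of receptors named where measured, and in the partner lists up to 4 called genes with the smallest p. Other named genes (Clec3b, Clec11a, Clec16a, Klrb1c, Klrg1, Syk, Fcer1g, H2-K1, H2-D1, Apoe, Epx, Clec4f, Vav1, St3gal3 and the other marker genes) were chosen after their values were seen. Alternatives were quantile normalization, median scaling, normexp (offset 50), the value table, other filters on dim probes, other uses of a gene's probes, a variance trend, a replicate term and leaving out each array. Neighbours follow the order of the studied genes in the same table, joined over at most 500 kb. Protein sequences were not used here, and 1 called gene of the partner lists is not reported here by name.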

Additional observations from a re-analysis of the deposited data

How the results depend on the processing

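The count of receptor genes called higher (11) and lower (21) moved by over 1.5 times with no filter on dim probes (5 and 13, with 45616 genes tested), and over the fits that leave out 1 array it ranged from 5 to 8 and from 12 to 15. Under quantile normalization, median scaling, normexp on the median signal, the authors' value table, the filter on all 4 arrays, averaging over a gene's probes, testing every probe and a variance trend, it stayed within 1.5 times (10 to 13 higher, 20 to 24 lower). The share of all genes called moved too. It was 24% in the main fit, 4.51% with no filter on dim probes, 30.4% with normexp and 38.2% with a variance trend. With quantile normalization it was 22.6%, and with the filter on all 4 arrays 26.5%. The median difference over the receptor genes, -0.15, was -0.12 with quantile normalization, -0.088 with normexp and -0.12 in the authors' value table. When 1 array was left out it was -0.20 to -0.11. Of the called genes, 4 of 11 higher and 11 of 21 lower passed in each of the 4 fits on 3 arrays, and 5 and 13 under all of the other alternatives except the replicate term. The calls of Siglecg and Mgl2 were also lost with quantile normalization and in the value table, and that of Siglecg with normexp and a variance trend. Clec3b, Clec11a, Clec16a, Klrb1c, the partner genes and the marker genes were part of these fits but were not followed singly. Among the receptor genes followed singly, the sign turned for 2 near 0 that passed in none of these fits. Trem1 was 0.0044 with quantile normalization, 0.0019 with median scaling, 0.0065 in the value table, and -0.10 to 0.088 when 1 array was left out. Clec2d was 0.0056 with median scaling, 0.0084 with normexp, and -0.027 to 0.019 when 1 array was left out. With the replicate number as a block, 10 receptor genes were higher and 17 lower, and 15.3% of all genes were called. The labels do not say what a number marks, and deviations from the group mean of same-numbered arrays correlated with r = -0.03, so the numbers were not taken as pairs. With normexp, dim genes had smaller differences, among them Clec2e (0.40), Clec1a (0.47) and Siglecf (0.43). Dim probes such as those of Clec12b, Klrb1f, Clec2e and Siglecg limit what could be called.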
